A study of Rattus norvegicus with 5 samples.

Results

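Microglia low in chemokine transcripts were examined in single-cell RNA sequencing of rat retina. A droplet barcode was taken as such a cell when it had at least 200 genes and at most 20% mitochondrial unique molecular identifiers (UMIs, the counted RNA molecules). It also had to hold at least 4 UMIs of C1qa, C1qb, C1qc and Csf1r together and at least 1 UMI of Tmem119, P2ry12 and Cx3cr1 together. Finally, Ccl3, Ccl4, Cxcl2 and Il1b had to make up less than 0.5% of its UMIs. This gave 319 of 44236 deposited barcodes, called chemokine-low microglia here. The other 191 barcodes that met every condition but the last are called chemokine-high microglia and serve as the comparison. The cells were thus chosen by the levels of 11 genes, which are given only as a description.

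The animals were SD rats, and their retinas were dissociated to single cells with trypsin. Diabetes was induced with a single intraperitoneal dose of 45 mg/kg streptozotocin (STZ, a toxin of the pancreatic beta cell) in citrate buffer. Rats above 200 mg/dL blood glucose counted as diabetic and then ate high-fat, high-sugar food for 2, 4 or 8 weeks, with 1 library at each time. The control (week 0) received citrate buffer without STZ, and no such diet is named for it, so diabetes, diet and time since injection cannot be told apart. Ages are not given in the sources used here. Control replicate 2 was used, and control replicate 1 was not analysed here. With 1 library per group there was no test between groups. Every interval given below is an exact 95% interval that covers counting error only, not the spread between animals, dissections or library preparations.

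Microglia are the resident macrophages of the retina. They survey the tissue with fine processes, prune synapses with the help of complement C1q, clear debris through lysosomes, and depend on signalling through the receptor Csf1r. On activation they switch on transcription factors of the NF-kB and AP-1 families, which drive chemokines and cytokines such as Ccl3, Ccl4, Cxcl2 and Il1b. Many of the same genes are also known to respond to tissue dissociation.

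The microglial markers went with the label in all 4 libraries. Summed over the cells, the control cells held 5957 UMIs of the complement gene C1qa in each 1000000 (counts per 1000000 UMIs, CPM), and the cells of 2, 4 and 8 weeks held 4381, 6213 and 5954 CPM. Tmem119, a marker of resident microglia, stood at 1205, 906.5, 996.3 and 1133 CPM, and the growth factor receptor Csf1r at 1711, 1364, 1530 and 1429 CPM. P2ry12, the purine receptor that guides microglial processes, was at 319 CPM in control, 225 at 2 weeks, 134 at 4 weeks and 339 at 8 weeks. The fractalkine receptor Cx3cr1 was at 439, 257, 291 and 282 CPM. All of these were part of the selection.

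The cells numbered 123 in control and 62, 55 and 79 at 2, 4 and 8 weeks. They made up 65.1% of microglia in control (57.8 to 71.9), 42.8% at 2 weeks (34.6 to 51.2), 88.7% at 4 weeks (78.1 to 95.3) and 69.3% at 8 weeks (60.0 to 77.6, Clopper-Pearson). At this limit the 2-week share was thus the lowest and the 4-week share the highest, and the intervals of control and 8 weeks overlapped. The 2-week share moved with the limit, to 28.97% at 0.25% and 66.21% at 1%. At 1% the control share stayed within its interval given above, and 66.21% also lies in that interval. As a share of all barcodes that passed the filters the chemokine-low cells were 1.66%, 0.492%, 0.654% and 1.73% in the same order. The 4-week library held only 7 chemokine-high cells.

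Most chemokine-low cells carried no chemokine UMI at all in control (95 of 123 cells, 77.2%), at 4 weeks (44 of 55, 80.0%) and at 8 weeks (58 of 79, 73.4%). At 2 weeks this was true of 21 of 62 cells (33.9%), and the median share of chemokine UMIs was 0.131% there against 0 in the other libraries. Across the libraries 9 cells lay just inside the limit, between 0.4% and 0.5%, and 11 chemokine-high cells just outside it, between 0.5% and 0.6%. The 2-week library gave 4 of the former and 6 of the latter. The 2-week cells thus stood apart in the very genes that the rule used, and each later result on that library carries this difference.

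**Figure D1:**
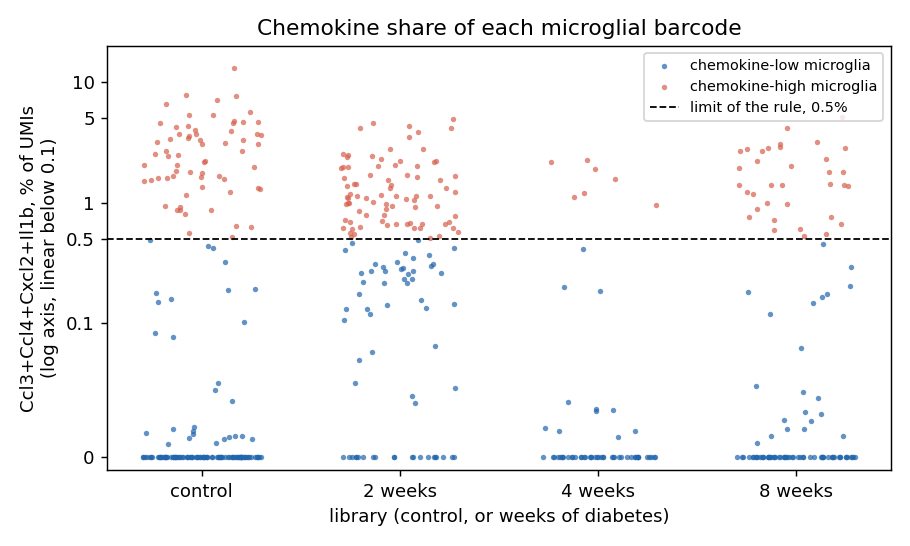
Each point is 1 microglial barcode, placed by library (x) and by the percent of its UMIs from Ccl3, Ccl4, Cxcl2 and Il1b (y, log axis that is linear below 0.1%). Most blue points lie at 0 in control and at 4 and 8 weeks, whereas at 2 weeks only 21 of 62 do and many gather between 0.1% and the dashed limit at 0.5%.

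The cells held 610693, 244899, 267986 and 368809 UMIs in control and at 2, 4 and 8 weeks, with a median of 5025, 3770, 4225 and 4612 per cell. Chemokine-high cells were deeper, at a median of 7756, 5652, 7851 and 8765. No cell barcode of a chemokine-low cell was shared between libraries, while 13 to 70 barcodes were shared by each pair of whole libraries. Of the markers of other macrophages and monocytes, Mrc1, Cd163, F13a1, S100a9 and Cd5l were at 0 in every library and the 10 genes measured summed to 31.1 to 73.5 CPM. The 7 T and NK cell markers summed to at most 4.08 CPM. RNA of rods, the commonest retinal cell, had a median of 1.07% of UMIs per cell at 2 weeks against 0.114% to 0.135% elsewhere, and 11 cells of the 2-week library had over 3%. Haemoglobin RNA was over 24% of UMIs in 2 control and 2 of the 8-week barcodes, although red cells had been lysed. Endothelial and pericyte markers summed to 445 and 437 CPM at 2 weeks and to at most 27.1 CPM elsewhere. Results without the 7, 14, 2 and 4 barcodes that carried RNA of other cell types are given beside the counts, an alternative chosen after seeing the data.

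At most 2 core microglial genes outside the rule lay 2-fold from control at any time. Of 22 homeostatic microglial genes with enough counts, 1 was at least 2-fold higher at 2 weeks and none lower. At 4 weeks none was higher and 2 were lower, and the same numbers were found at 8 weeks. Genes were used if their 4 libraries averaged 50 CPM or more and the pair compared held 30 UMIs or more. This mean includes the library compared, so a gene can be used through the very library in which it is high. Of the genes named below, Hsph1, Rel, H2afx and Nabp1 were under 50 CPM in every library but that of 2 weeks. Abcg1 and Nr4a1 were under 50 CPM in every library but that of 4 weeks. Of all genes used, 14.3% of 2310 were at least 2-fold higher and 3.03% lower at 2 weeks, 3.23% and 3.45% of 2290 at 4 weeks, and 1.09% and 2.01% of 2293 at 8 weeks. The homeostatic share lower at 4 and at 8 weeks was thus above that of all genes, though from 2 genes each. Intervals lay below control for 6, 9 and 6 of the 22 homeostatic genes at 2, 4 and 8 weeks. They lay above control for 3, 1 and 3. Ratios are log2 values with 0.5 counts added to each sum. Trem2, the lipid-sensing receptor of microglia, was at 956 CPM in control, 739 at 2 weeks, 601 at 4 weeks and 1003 at 8 weeks. Its log2 ratios to control were -0.37 (-0.62 to -0.13), -0.67 (-0.93 to -0.42) and 0.07 (-0.12 to 0.26). P2ry13, a receptor for adenosine diphosphate, was at 85.2, 69.4, 29.9 and 35.3 CPM, so that both later times lay below control. Cst3, the protease inhibitor cystatin C, was at 139300, 93820, 124900 and 130400 CPM. The list's median log2 ratio was -0.11, -0.18 and -0.10, beside 0.18, 0.14 and 0.01 over all genes used, and the 2-week median was 0.15 with rod RNA subtracted.

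The 3 times are compared with the same control library, and the scale matters at 2 weeks. There 331 genes were at least 2-fold higher and 70 lower. Scaling with trimmed means (TMM, which removes the pull of a few abundant transcripts) moved all 2-week ratios by -0.31 on the log2 scale and left 170 higher and 173 lower. At 4 weeks, where 74 genes were higher and 79 lower, it moved ratios by -0.15 and left 42 and 114. The 8-week counts were 25 and 46, and 23 and 51 with TMM (shift -0.02). Without barcodes carrying RNA of other cell types the counts were 295 higher and 105 lower at 2 weeks, 56 and 95 at 4 weeks, and 26 and 41 at 8 weeks.

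Genes that switch on within minutes of stimulation were high in the 2-week cells and low in the 4-week cells. Of the immediate early genes, 12 of 14 used were at least 2-fold higher at 2 weeks and none lower, with a median log2 ratio of 1.66. At 4 weeks 9 of 15 were at least 2-fold lower and 1 higher (median -1.09), the higher one being the nuclear receptor gene Nr4a1 (26.2 CPM in control and 112 at 4 weeks). At 8 weeks none was higher and 2 of 14 were lower (median 0.07). Jun, a subunit of the transcription factor AP-1, was at 1782 CPM in control, 5909 at 2 weeks, 765 at 4 weeks and 2294 at 8 weeks. Its log2 ratio was 1.73 at 2 weeks (1.62 to 1.84), -1.22 at 4 weeks and 0.36 at 8 weeks (0.23 to 0.50). Junb, another AP-1 subunit, was at 1307, 6002, 612 and 1196 CPM, and Fos, their partner, at 1405, 3830, 470 and 1605 CPM. The early growth response factor Egr1 was at 586, 3275, 276 and 743 CPM, and Btg2, which slows division, at 539, 2046, 269 and 683 CPM. All 5 were highest at 2 weeks and lowest at 4 weeks.

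The cells were unequal in these genes. The median cell had no Fos UMI in control and at 4 and 8 weeks, and 1856 CPM at 2 weeks. With cells thinned to 1000 UMIs, Fos was found in 20.7% of 111 control cells, 72.7% of 55 cells at 2 weeks, 8.0% of 50 at 4 weeks and 30.3% of 66 at 8 weeks. Without thinning these shares were 30.9%, 69.4%, 10.9% and 35.4%. In 500 rod barcodes of each library thinned alike, Fos was found in 12.6%, 15.0%, 12.8% and 10.8%. No expression is read from the 4-week share of the microglia, which was no higher than that of rods. Summed over rod barcodes, the immediate early list had median log2 ratios of 0.76, 0.21 and -0.93 at 2, 4 and 8 weeks. At 2 weeks 10 of 13 genes lay above control in rod barcodes and 3 below, beside a median of -0.10 over all genes used there. The median depth was 896 to 1249 UMIs in rods and 3770 to 5025 in the microglia. At 4 weeks 1 cell gave 42.1% of the Fos UMIs and 37.1% of those of Jun. The 2-week median of the list was 2.25 for cells below 0.25% chemokine UMIs and 1.03 for cells below 1%, and 1.82 without barcodes carrying RNA of other cell types.

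Genes of the NF-kB response other than the 4 chemokines of the rule were also higher at 2 weeks and lower at 4 weeks in their medians. Of 10 used, 6 were at least 2-fold higher at 2 weeks (median 1.12). The 2-week median was 0.60 over the 14 genes with a mean of at least 20 CPM, 0.72 for cells below 1% chemokine UMIs and 0.81 with TMM. At 4 weeks none was higher and 3 were lower (median -0.85), and at 8 weeks none was 2-fold apart (median -0.16). Nfkbia, the inhibitor that NF-kB induces against itself, was at 863, 2029, 381 and 960 CPM, with log2 ratios of 1.23 (1.05 to 1.41), -1.18 (-1.50 to -0.87) and 0.15 (-0.05 to 0.35). Ier3, a survival gene of the same response, was at 729, 3132, 269 and 840 CPM, and the adhesion molecule Icam1 at 78.6, 392, 48.5 and 59.6 CPM. Gadd45b, a stress-response gene, was at 151 CPM in control, 702 at 2 weeks, 7.46 at 4 weeks and 231 at 8 weeks, beside 192 to 318 CPM in rod barcodes. Rel, an NF-kB subunit, was at 31.1, 147, 18.7 and 13.6 CPM. Tnf, the cytokine tumour necrosis factor, was low throughout at 37.7, 61.3, 26.1 and 27.1 CPM, and each of its intervals included 0. Ccl2, which attracts monocytes, was at 72.1, 61.3, 59.7 and 35.3 CPM, from 13 to 44 UMIs a library. Its 8-week log2 ratio of -0.99 turned to 2.58 when only cells below 0.25% chemokine UMIs were kept.

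Chemokine-high cells of the same libraries had other values. Every 4-week value of chemokine-high cells, here and below, rests on 7 cells with 43138 UMIs. Their median log2 ratio for immediate early genes was -0.90 at 2 weeks, 0.06 at 4 weeks and -0.34 at 8 weeks, and for the NF-kB list -0.75, -0.17 and -0.32. In these cells the control sum held 15320 CPM of Jun, and the later sums held 8233, 11540 and 11500 CPM. The 2 kinds of microglia thus lay closest in Jun at 2 weeks. Whether the kinds differ across times was not tested.

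Of the heat shock genes, which encode chaperones, 7 of 10 used were at least 2-fold higher at 2 weeks and none was 2-fold lower (9 above and 1 below control, median 1.60). At 8 weeks 3 of 8 were at least 2-fold higher and none 2-fold lower, with all 8 above control (median 0.59). At 4 weeks 1 of 9 was at least 2-fold higher and 2 were 2-fold lower (3 above and 6 below control, median -0.38). Hspa1b, an inducible chaperone, was at 96.6 CPM in control, 621 at 2 weeks, 41.1 at 4 weeks and 434 at 8 weeks. In rod barcodes it was at 698, 591, 641 and 774 CPM, as high as in the microglia or higher in every library except at 2 weeks. At 8 weeks 1 cell gave 41.2% of the Hspa1b UMIs. Hsph1, a partner of the same chaperone, was at 19.7, 131, 22.4 and 40.7 CPM. It was 1 of the 7 genes higher at 2 weeks and was used only through its 2-week level. Hsp90ab1, a constitutive chaperone, was at 1295, 2809, 1310 and 1662 CPM. The cochaperone Dnajb1 was at 131, 551, 44.8 and 333 CPM, beside 87.0 to 97.3 CPM in rod barcodes.

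**Figure D2:**
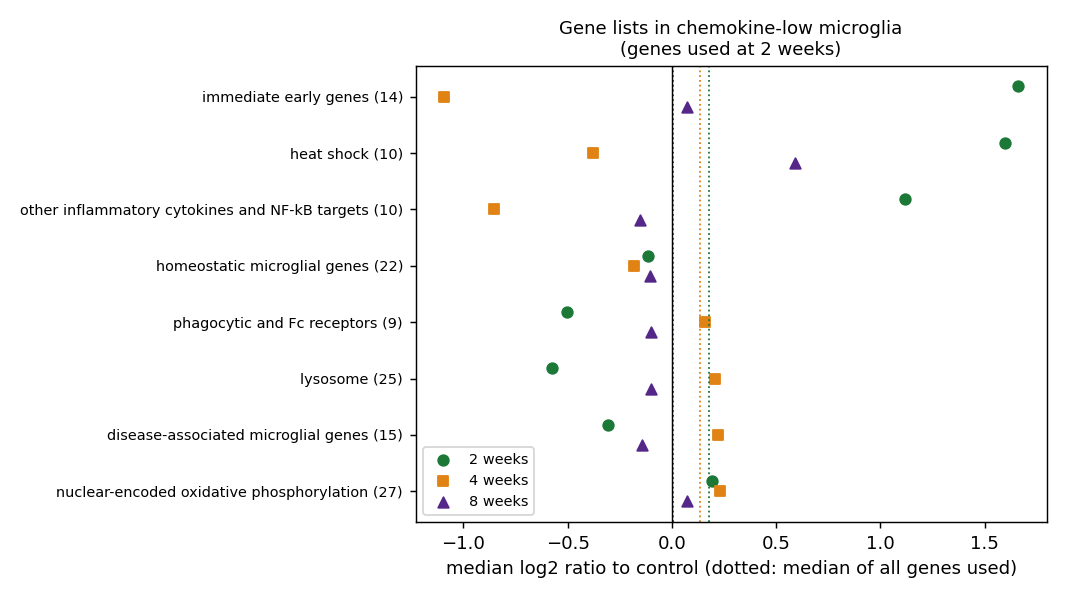
Points give the median log2 ratio to control (x) of each gene list (y, genes used at 2 weeks in brackets) in chemokine-low microglia, by time. Dotted lines give the median of all genes used at each time. Immediate early, heat shock and NF-kB genes lie between 1.12 and 1.66 at 2 weeks and below 0 at 4 weeks, whereas lysosomal and phagocytic genes lie below 0 at 2 weeks.

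Most genes of degradation and uptake lay below control at 2 weeks. Of 25 lysosomal genes used, 19 lay below control at 2 weeks and 3 were at least 2-fold lower (median -0.57), while at 4 weeks 16 lay above control, 2 of them 2-fold or more, and 1 was 2-fold lower (median 0.21). At 8 weeks none was 2-fold apart (median -0.10). The protease Ctsb was at 1461 CPM in control, 764 at 2 weeks, 2299 at 4 weeks and 1155 at 8 weeks. Its log2 ratios were -0.93 (-1.17 to -0.71), 0.66 (0.50 to 0.80) and -0.34 (-0.51 to -0.17). Cd68, a lysosomal membrane protein of phagocytes, was at 83.5, 12.3, 258 and 81.3 CPM, the 2-week value being 3 UMIs. Naglu, an enzyme that degrades heparan sulfate, stood at 83.5, 12.3, 74.6 and 48.8 CPM, the 2-week value again being 3 UMIs. Grn, the lysosomal growth factor progranulin, was at 1531, 764, 1828 and 1613 CPM, and Psap, the precursor of the saposins, at 3200, 2074, 4399 and 2980 CPM. Lgmn, the protease legumain, was at 1705, 878, 1687 and 1592 CPM. The protease Ctss, named after its values were seen, was the lysosomal gene at least 2-fold lower at 4 weeks, at 536, 568, 224 and 713 CPM.

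Of 9 phagocytic and Fc receptor genes, 8 lay below control at 2 weeks and 1 was at least 2-fold lower (median -0.50), against 3 and 6 below control at 4 and 8 weeks (medians 0.16 and -0.10), with none 2-fold apart at those times. The adaptor Tyrobp, through which Trem2 signals, was at 2065, 1666, 2306 and 2072 CPM. Fcer1g, the shared chain of the Fc receptors, was at 2139, 1462, 2146 and 2302 CPM. With rod RNA subtracted the 2-week medians were -0.34 for lysosomal and -0.20 for phagocytic genes.

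Apoe, the lipid carrier that microglia secrete, was higher in the cells of all 3 times. The control sum held 3002 CPM, and those of 2, 4 and 8 weeks held 5811, 14020 and 10830 CPM. The log2 ratios were 0.95 (0.85 to 1.05), 2.22 (2.14 to 2.31) and 1.85 (1.77 to 1.93), and over the alternatives tried they ran from 0.645 to 1.16, 2.075 to 2.28 and 1.79 to 1.94. The median cell held 1561 CPM of Apoe in control against 4972, 12690 and 9080 CPM later, and the lower quartile at 4 weeks (7499 CPM) lay above the upper quartile of control (3285 CPM). Chemokine-high cells stood at 2891, 4866, 9412 and 11240 CPM. In rod barcodes Apoe was at 957, 1951, 1219 and 445 CPM. Apoe is also made by Müller glia, whose other 7 markers summed to 798 CPM in the control cells and 1384, 646 and 941 CPM at 2, 4 and 8 weeks.

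**Figure D3:**
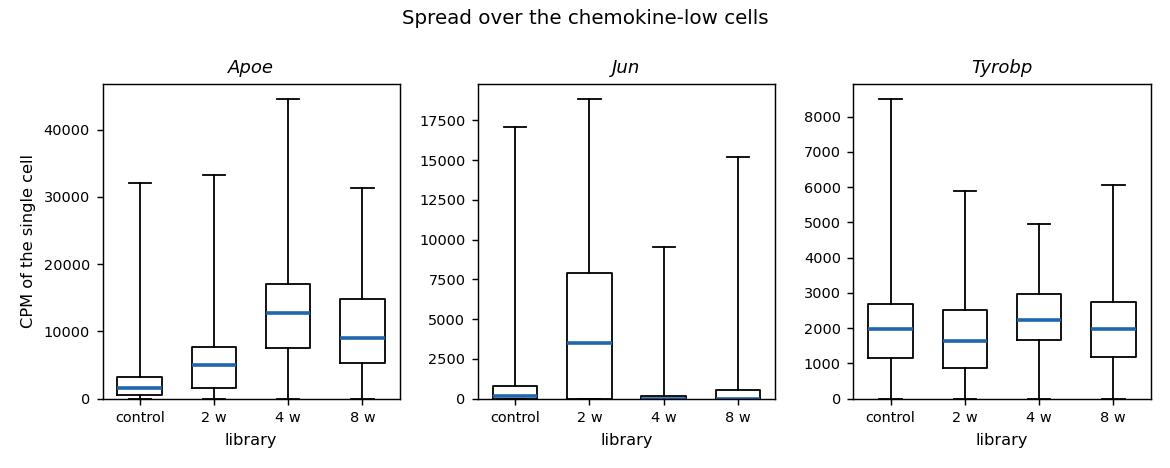
Boxes give the quartiles and the median (blue) of the single-cell level in CPM (y) of Apoe, Jun and Tyrobp in the chemokine-low cells of each library (x), and whiskers run to the lowest and highest cell. The Apoe boxes at 4 and 8 weeks lie above the control box, the Jun box reaches 7902 CPM at 2 weeks only, and the Tyrobp boxes overlap.

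Of 6 lipid carrier and cholesterol efflux genes used, Apoe included, 1 was at least 2-fold higher and 1 lower at 2 weeks, 2 were higher and none lower at 4 weeks, and 1 was higher and none lower at 8 weeks. Abcg1, a cholesterol exporter and the other one higher at 4 weeks, was at 32.8, 44.9, 119 and 43.4 CPM, while rod barcodes held 78.8 to 119 CPM. Cd9, a tetraspanin of the disease-associated set, was below control at all 3 times, at 421, 204, 164 and 217 CPM. In the disease-associated list as a whole 1 gene was at least 2-fold higher and 3 of 15 were lower at 2 weeks, 2 were higher and 1 of 14 lower at 4 weeks, and 1 of 14 was higher and none lower at 8 weeks. Spp1, osteopontin and a member of that list, had 3 UMIs in control and 0 at the other times.

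The genes named for lying on the same side of control at all 3 times, each with an interval that excludes 0, had their own levels, and the 3 ratios share the control library. Srgn, the proteoglycan of secretory granules, was at 247 CPM in control and 613, 754 and 697 CPM after, with log2 ratios of 1.31, 1.61 and 1.49. Herpud1, an endoplasmic reticulum stress gene, was at 192, 490, 582 and 372 CPM, beside 524, 109, 206 and 336 CPM in rod barcodes. Chemokine-high cells held 818.7, 649.8, 2388 and 842.2 CPM of Herpud1, so that their 2-week level was below control. Zmiz1, a transcriptional coregulator, was at 120, 253, 213 and 179 CPM, and Tsc22d3, a glucocorticoid-induced regulator, at 269, 666, 377 and 401 CPM. Chemokine-high cells held 1081, 656, 1623 and 918 CPM of Tsc22d3. Their 2- and 8-week levels were thus below control and their 4-week level, from 7 cells, above it. Of Zmiz1 they held 189.4, 372.9, 208.6 and 158.5 CPM, with the 8-week level below control. Smaller differences were found for Spint2, a protease inhibitor (log2 ratios 0.45, 0.52 and 0.47), Gpx1, which removes peroxides (0.42, 0.44 and 0.40), and Cfl1, an actin-severing protein (0.25, 0.50 and 0.47). With TMM the 2-week ratio of Cfl1 was -0.06. In chemokine-high cells Spint2 and Cfl1 were above control at all 3 times, and Gpx1 at 2 and 8 weeks.

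Below control at all 3 times was Cd74, the invariant chain of class II histocompatibility molecules. It had 321 CPM in control and 61.3, 127 and 117 CPM after, with log2 ratios of -2.35 (-3.25 to -1.63), -1.32 (-1.91 to -0.81) and -1.45 (-1.97 to -0.98). A Cd74 UMI was found in 32.5% of control cells and in 19.4%, 32.7% and 27.8% of cells at 2, 4 and 8 weeks, without thinning. The 4-week share was thus about that of control, and the median cell had none in every library. In control 1 cell gave 18.9% of the Cd74 UMIs. Chemokine-high cells held 382, 61.8, 464 and 192 CPM, so that their 4-week level, from 7 cells, was above control. C5ar1, the receptor of complement C5a, was at 99.9, 36.8, 56.0 and 48.8 CPM, and Tlr2, a receptor for bacterial lipoproteins, at 157, 77.6, 74.6 and 89.5 CPM. Mtmr9 (log2 ratios -1.39, -0.85 and -1.31), Pea15 (-0.94, -0.49 and -0.95), Vsir, an immune checkpoint receptor (-0.48, -0.45 and -0.55), and Cd48, an adhesion receptor of leukocytes (-0.25, -0.29 and -0.40), completed the named genes. Rod barcodes held 37.1 to 48.4 CPM of Mtmr9 and 199 to 250 CPM of Pea15, and at most 1.58 CPM of Vsir. In the chemokine-high cells of 4 weeks Tlr2 (394.1 CPM, 180.1 in control) and Mtmr9 (115.9 and 46.4) were above control. Cd48 was above control in those of 2 weeks (718 and 664.7 CPM). C5ar1, Pea15 and Vsir were below control in chemokine-high cells at all 3 times.

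Fkbp5, a chaperone of the glucocorticoid receptor and itself a target of glucocorticoids, was at 14.7 CPM in control, 131 at 2 weeks, 59.7 at 4 weeks and 133 at 8 weeks, from 9, 32, 16 and 49 UMIs. Its log2 ratios were 3.09, 1.98 and 3.11, with lower limits of 2.05, 0.75 and 2.13, though the 4-week pair held too few UMIs to count as used. Chemokine-high cells held 50.1, 117, 139 and 135 CPM, the 4-week value from 7 cells. In rod barcodes it was at 24.3, 19.6, 35.3 and 29.5 CPM. Of the other glucocorticoid targets used, 2 of 5 were at least 2-fold higher at 2 weeks, Tsc22d3 and Dusp1. Dusp1, also an immediate early gene, was 2-fold lower at 4 weeks. The median log2 ratio of the glucocorticoid list was 1.10, -0.19 and 0.15 at 2, 4 and 8 weeks. In chemokine-high cells it was -0.47, 0.56 (7 cells) and 0.02.

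**Figure D4:**
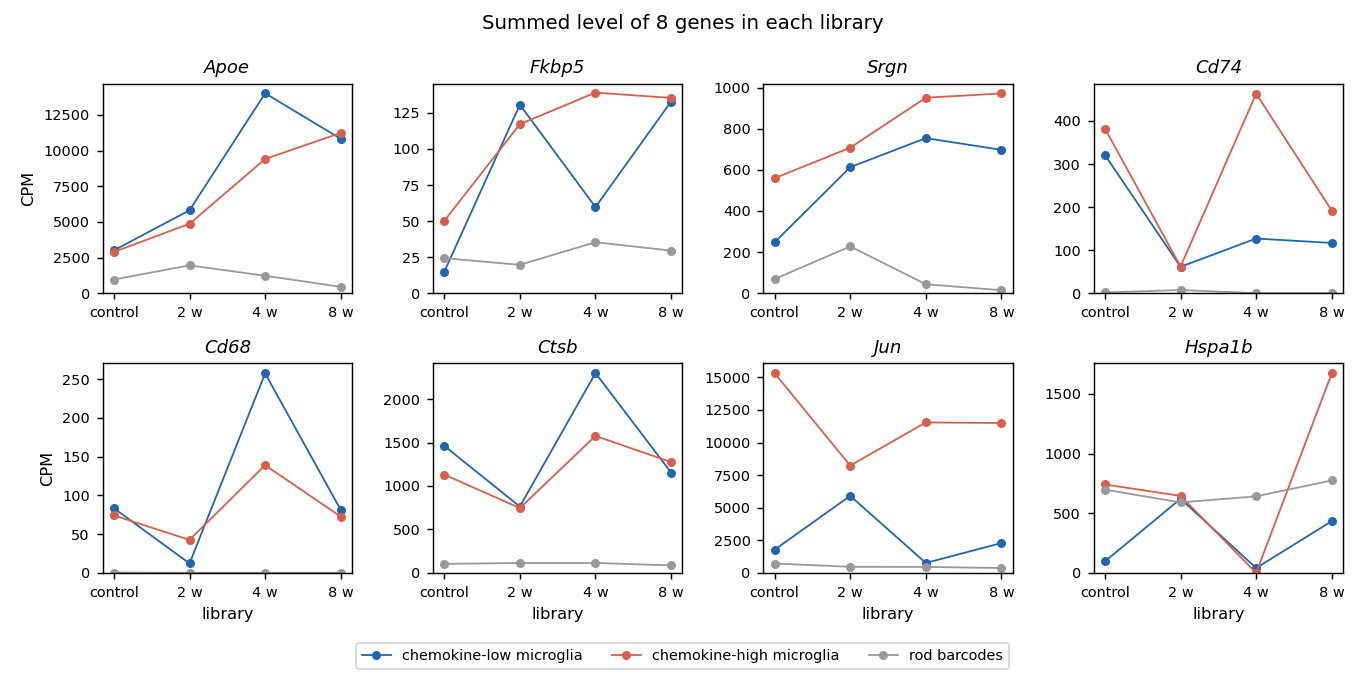
Each panel gives the summed level in CPM (y) of 1 gene in the 4 libraries (x) for chemokine-low microglia, chemokine-high microglia and rod barcodes, 1 point per library. Apoe and Srgn lie above control in both kinds of microglia at all 3 times, Cd68 peaks at 258 CPM at 4 weeks in chemokine-low cells, and Jun is closest between the kinds at 2 weeks.

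Other genes were named by size at single times. At 2 weeks the histone gene H2afx (29.5 CPM in control, 176 at 2 weeks) and the DNA-binding gene Nabp1 (40.9 and 216 CPM) were high, beside 105 and 7.74 CPM in the rod barcodes of that library. Low at 2 weeks were the cytoskeletal gene Lsp1 (139 CPM in control and 12.3 at 2 weeks, 3 UMIs) and Irf5, an interferon regulatory factor (213 and 57.2 CPM). At 4 weeks the actin-capping gene Capg was at 157 CPM against 22.9 in control, the chemokine Ccl6 at 220 against 68.8, the complement regulator Cfp (properdin) at 157 against 49.1, and Dtx2, a ubiquitin ligase of the Notch pathway, at 78.4 against 22.9. Cfp was also high at 8 weeks (130 CPM). Among genes that met the naming rule given below, those lowest at 4 weeks included the chaperone gene Hspa2 (86.8 CPM in control, 11.2 at 4 weeks). With it were the cytokine Il18 (180 and 63.4), the nucleolar gene Nop53 (149 and 52.2), the ubiquitin-conjugating gene Ube2s (179 and 63.4) and Sertad1 (81.9 and 29.9). Of these, Hspa2 (225 CPM), Ube2s (694 CPM) and Sertad1 (343 CPM) were above control at 2 weeks. Rod barcodes at 4 weeks held more than the microglia of Hspa2 (29.4 CPM), Nop53 (80.4 CPM), Ube2s (116 CPM) and Sertad1 (80.6 CPM). At 8 weeks the RNA-processing genes Cpsf4 (70.4 CPM in control, 27.1 at 8 weeks) and Rbm7 (77.0 and 29.8) were low.

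Of 11 microglial transcription factors used at 2 weeks, 3 were at least 2-fold higher and 1 lower. Rel was 1 of the 3 and was used only through its 2-week level. Of 10 used at 4 and at 8 weeks none was 2-fold apart. Cebpb, a factor of inflammatory transcription, was at 275, 760, 213 and 355 CPM. Spi1, the master regulator of the myeloid lineage, was at 290, 172, 302 and 241 CPM. In signalling by transforming growth factor beta, which maintains microglia, the feedback inhibitors Smad7 (128, 318, 78.4 and 103 CPM) and Skil (75.3, 229, 44.8 and 62.4 CPM) were the 2 of 5 genes at least 2-fold higher at 2 weeks. The receptor Tgfbr1 was the 1 of 5 lower at 8 weeks, at 211, 167, 164 and 103 CPM. The central complement component C3 was at 684, 612, 668 and 372 CPM and thus lowest at 8 weeks. P2ry6, the receptor for uridine diphosphate that triggers uptake, was at 439, 208, 302 and 358 CPM. At each time 1 of 4 purinergic genes was at least 2-fold lower, P2ry6 at 2 weeks and P2ry13 at 4 and 8 weeks.

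Chemokine-low and chemokine-high cells of the same library were then compared over the 4 libraries, with the 11 genes of the rule left out. The genes called lower in chemokine-low cells included NF-kB targets, immediate early genes and chaperones, and no homeostatic or lysosomal gene was called. Of 3633 genes tested, 102 were lower (2.81%) and 2 higher (0.0551%) at an adjusted p below 0.05 (edgeR quasi-likelihood test, library as a term, Benjamini-Hochberg). At an unadjusted p below 0.05, 431 were lower and 216 higher. Because the cells were divided by 4 transcripts of the same response, genes that vary with those transcripts from cell to cell follow from the choice. The calls therefore describe the division and are no independent evidence of a direction, and nothing further is read from their share. CPM in this comparison leave out the 11 genes of the rule.

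In the NF-kB and cytokine list 14 of 18 genes tested were lower and none higher (median log2 difference -2.38). Cxcl1, a neutrophil chemokine, had no UMI in any of the 319 chemokine-low cells and 129, 40, 4 and 35 UMIs in the chemokine-high cells of control and 2, 4 and 8 weeks. Against a floor of 3 UMIs over all chemokine-low cells it was at least 76.4-fold lower. Tnf differed by -2.79 ± 0.35 (log2) and was lower in 4 of 4 libraries. Its differences in control and at 2, 4 and 8 weeks were -3.524, -1.175, -3.236 and -2.786. Each ± value here is a standard error derived from the edgeR test statistic and does not measure the spread between libraries. Nfkbiz, a nuclear cofactor of NF-kB, differed by -3.11 ± 0.44, at 85.4 against 1071 CPM in control and 224 against 583 CPM at 2 weeks. Ccrl2, a receptor that binds chemerin, differed by -3.09 ± 0.29. Tnfsf9, a costimulatory ligand, differed by -4.82, the interferon-induced chemokine Cxcl10 by -3.62 and Nfkbid, another NF-kB cofactor, by -2.99, all lower in 4 of 4 libraries.

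Of the immediate early genes 12 of 19 were lower and none higher (median -2.29). The stress factor Atf3 differed by -3.29, the nuclear receptor Nr4a1 by -2.95 and Junb by -2.71 ± 0.49. The interferon-induced Ifit2 (-3.13) and Phlda1 (-2.91) completed the 12 lowest. Of 12 heat shock genes 6 were lower, and of 5 ATF4 targets, genes of the integrated stress response, 3 were lower, with none higher in either list. Ch25h, which makes an oxysterol, was the only one of 16 disease-associated genes that was called (-1.58, named after its value was seen).

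No gene was called among 22 homeostatic genes (median 0.01), 27 lysosomal genes (median 0.23) or 10 phagocytic and Fc receptor genes (median -0.02). At an unadjusted p below 0.05 these lists held 3, 5 and 2 genes in edgeR, and DESeq2 called 0 in each. In nuclear-encoded oxidative phosphorylation 26 of 27 genes were above 0 (median 0.45, beside 0.00 over all genes tested) and none was called in edgeR or DESeq2, with 15 at an unadjusted p below 0.05 in edgeR. The 2 genes higher in chemokine-low cells were Clu, the secreted chaperone clusterin (1.73 ± 0.31), and Bsg, the lactate transporter partner basigin (0.72 ± 0.16). Both were higher still in rod barcodes, where Clu was at 181 to 367 CPM and Bsg at 822 to 2210 CPM, against 32.5 to 73.5 and 412 to 780 CPM in chemokine-low cells. Without barcodes that carried RNA of other cell types neither was called, and 72 genes were lower.

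The number of calls moved with single libraries, more in edgeR than in DESeq2. Without the control library no gene was called in edgeR, with 189 lower and 63 higher at an unadjusted p below 0.05. Leaving out the 2-week library raised the edgeR count to 237 lower and 52 higher, leaving out the 4-week library left 4 lower, and leaving out the 8-week library left 12 lower and 1 higher. DESeq2 called 38 genes lower without the control library, 128 without 2 weeks, 54 without 4 weeks and 47 without 8 weeks. DESeq2 on all 4 libraries called 102 lower and 2 higher, and 90 of the 104 edgeR calls were among them.

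**Figure D5:**
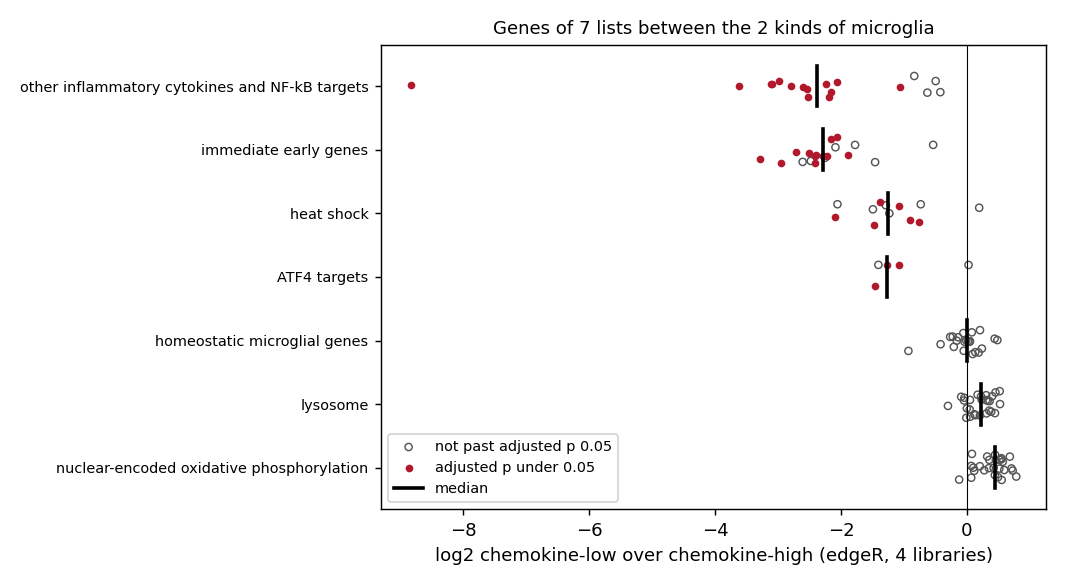
Each point is 1 gene of a list (y), placed by its log2 difference of chemokine-low over chemokine-high microglia (x) fitted over 4 libraries. Filled points passed an adjusted p of 0.05 and bars are medians. The medians of the NF-kB and immediate early lists lie at -2.38 and -2.29, and those of the homeostatic and lysosomal lists at 0.01 and 0.23. The fitted value of Cxcl1, the leftmost point, depends on its zero counts.

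The upstream sequences of 3 of the lowest genes are given as examples that hold an NF-kB match, and they were chosen for it. Of the other genes among the 12 lowest with an entry, Nr4a1 also held an NF-kB match, and Ccrl2, Nfkbid, Phlda1, Tnf and Junb held none of the 3 motifs searched. They are the 250 bases before the RefSeq start on the GRCr8 build, 5′ to 3′ on the strand of the gene. Capitals mark matches on either strand to the NF-kB consensus or to the AP-1 motif TGANTCA. They run chr14:17479322-17479571 (minus strand) for Cxcl1, chr14:15988816-15989065 (plus strand) for Cxcl10 and chr11:58251471-58251720 (plus strand) for Nfkbiz.
Cxcl1: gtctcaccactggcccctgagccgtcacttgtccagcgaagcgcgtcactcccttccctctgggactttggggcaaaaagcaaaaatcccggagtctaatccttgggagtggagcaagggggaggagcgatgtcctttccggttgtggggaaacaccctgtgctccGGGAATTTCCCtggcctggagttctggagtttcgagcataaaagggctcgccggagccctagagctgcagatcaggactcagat
Cxcl10: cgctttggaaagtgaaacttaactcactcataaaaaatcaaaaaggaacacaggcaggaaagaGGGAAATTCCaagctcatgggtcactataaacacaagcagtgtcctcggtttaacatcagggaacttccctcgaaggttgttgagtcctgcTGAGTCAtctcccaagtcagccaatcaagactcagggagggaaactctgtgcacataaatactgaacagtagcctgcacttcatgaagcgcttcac
Nfkbiz: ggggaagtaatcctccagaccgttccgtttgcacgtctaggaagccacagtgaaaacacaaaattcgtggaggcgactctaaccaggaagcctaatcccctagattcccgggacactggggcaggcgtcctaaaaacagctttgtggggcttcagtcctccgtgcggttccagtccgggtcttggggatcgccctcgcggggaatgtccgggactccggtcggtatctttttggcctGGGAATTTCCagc
In Cxcl1 the capitals hold 2 overlapping NF-kB matches. In Cxcl10 the first run is an NF-kB match and the second an AP-1 match, and in Nfkbiz the run is an NF-kB match. Over windows from 250 bases before to 50 after the start, 78 of the 102 lower genes had an entry by symbol, and 14.1% of these held an NF-kB match, against 4.81% of the 2867 genes tested that had an entry. The AP-1 motif was in 8.97% against 4.81%, and the cyclic AMP response motif TGACGTCA in 7.69% against 3.35%. Both strands were searched, the AP-1 and cyclic AMP motifs cannot match within each other, and a match says only that these letters occur in the window.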

How the data were processed

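The deposited matrices hold raw counts of UMIs per gene and barcode, per the file headers, made with Cell Ranger 3.0.1 on Rnor_6.0, per the submitters' processing notes. The annotation release is not given in the sources used here. Each of the 4 libraries held 20151789 to 34177860 UMIs in 7649 to 16128 barcodes of at least 500 UMIs.

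The members, gene lists and tests were chosen with earlier results of these data known. UMIs were summed per library over the chosen cells and given as CPM. Differences between libraries are log2 ratios with exact conditional binomial intervals, without a test. The 2 kinds of microglia were compared with edgeR 4.0.16, with DESeq2 1.42.0 as an alternative. The ratio and edgeR steps were also run on simulated counts. These held counting error only for the ratios and a preset spread for edgeR, so they say nothing of the spread between animals. No doublet caller was run, and barcodes mixed with other cell types were left out as an alternative. Rod barcodes (at least 10 UMIs of rod markers and none of the 7 microglial genes of the rule) served as a comparison for RNA carried over from other cells. Their levels hold the rods' own RNA as well as any free RNA, which cannot be told apart here. Where rod RNA was subtracted, this whole profile was removed, scaled by the rod markers. With 1 library per group analysed, cells are not replicates.

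Genes were named by rule: the 6 highest and 6 lowest ratios per time, the 8 highest and 8 lowest at all 3 times and up to 12 per direction between the kinds, with intervals that exclude 0, a level of at least that in rod barcodes and no cell with over 25% of the UMIs. Up to 6 abundant members of each list and a few fixed genes were added. Ribosomal, mitochondrial and unnamed genes were left out. Some genes of the lists are not reported here by name.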

Additional observations from a re-analysis of the deposited data

How the results depend on the processing

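The 2-week share of chemokine-low cells among microglia was 34.43% with at least 2 UMIs of Tmem119, P2ry12 and Cx3cr1, 28.97% at a limit of 0.25% and 66.21% at 1%. The 8-week share was 78.95% at 1% and 58.44% after thinning to 1000 UMIs, and the other 23 recomputed shares stayed within their intervals. Counts of genes at least 2-fold apart moved with the scale, the floor and the fold. At 2 weeks the number higher was 170 with TMM, 147 at a mean of at least 100 CPM and 93 at 3-fold. The number lower was 107 at a limit of 0.25%, 173 with TMM, 107 for means over cells, 165 with rod RNA subtracted, 125 at 20 CPM, 37 at 100 CPM and 23 at 3-fold. At 4 weeks the number higher was 42 with TMM, 131 for means over cells, 123 at 20 CPM, 18 at 100 CPM and 15 at 3-fold, and the number lower 130, 52 and 20 at 20 CPM, 100 CPM and 3-fold. At 8 weeks the number higher was 39 with at least 2 UMIs of the 3 markers, 65 for means over cells, 50, 15 and 7 at 20 CPM, 100 CPM and 3-fold. The number lower was 27 at a limit of 1%, 106 for means over cells, and 89, 9 and 5 at 20 CPM, 100 CPM and 3-fold. Fewer genes are tested at 100 CPM and more at 20 CPM, and the cause of the other moves was not tested. Between the kinds of microglia the number higher in chemokine-low cells was 1 at 10% mitochondrial UMIs, 0 with at least 2 UMIs of the 3 markers, 6 and 13 at limits of 0.25% and 1%, 0 without mixed barcodes, 55 with no filter on low counts, 1 without TMM and 0 with no library term. The number lower was 64 with at least 2 UMIs of the 3 markers, 200 with no filter, 65 without TMM and 47 with no library term. Leaving out 1 library at a time gave 0 to 52 higher and 0 to 237 lower. Among list medians 436 of 492 recomputed values moved by at most 0.25 on the log2 scale, a margin set after the medians were seen. No median beyond 0.5 changed sign, but some smaller ones did. With rod RNA subtracted, the 2-week median of glycolysis and glucose uptake went from 0.327 to -3.571. That of nuclear-encoded oxidative phosphorylation went from 0.191 to -0.639. Without mixed barcodes the 2-week median of the lipid list went from 0.124 to -0.509. Among single-gene ratios whose interval excluded 0, those of 6 genes changed sign in 7 cases: Cfl1 at 2 weeks (-0.002 at a limit of 0.25%, -0.059 with TMM), Cst3 at 8 weeks (0.003 with at least 2 UMIs of the 3 markers), Lyz2 and Cd48 at 2 weeks (0.065 and 0.018 with rod RNA subtracted), Ccl2 at 8 weeks (2.581 at a limit of 0.25%) and Egr1 at 8 weeks (-0.148 at 10% mitochondrial UMIs). Ratios whose interval included 0 were not counted. Some of these also changed sign, such as those of Junb at 8 weeks (-0.364 to 0.279) and Ccl2 at 2 weeks (-1.018 to 3.354). No paired analysis was possible because each group analysed holds 1 library. Depth limits genes of few UMIs: a count of 0 over all chemokine-low cells allows up to 2.01 CPM.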

Other observations

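Class I histocompatibility transcripts, whose proteins present peptides to T cells, stood in differing orders between libraries. RT1-A2 was at 1746 CPM in the chemokine-low cells of control, 421 at 2 weeks, 1918 at 4 weeks and 626 at 8 weeks, and RT1-A1 at 126, 425, 52.2 and 789 CPM. The libraries in which RT1-A2 was low were thus those in which RT1-A1 was high. RT1-CE10 stood at 2500, 1004, 2243 and 1757 CPM and RT1-CE5 at 44.2, 81.7, 74.6 and 171 CPM. In chemokine-high cells RT1-A2 was at 1780, 505, 1553 and 776 CPM and RT1-A1 at 366, 454, 209 and 664 CPM. In rod barcodes RT1-A2 was at 554, 158, 773 and 238 CPM, the same order of libraries as in chemokine-low cells, whereas RT1-A1 was at 333, 99.8, 280 and 133 CPM. B2m, the light chain that all of them share, was at 4500, 3773, 4157 and 4262 CPM. These are near-identical members of 1 family, the animals are of an outbred stock and only 1 library per group was analysed, so reads assigned among the members are uncertain and the levels are given as the files hold them.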
